A study of Mus musculus with 11 samples.

Results

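Solute carriers are the membrane proteins of the Slc gene families, which move sugars, amino acids, carboxylates, ions, metals, vitamins and nucleotides across the surface and organelle membranes of a cell. The genes described here are the 191 whose single annotated symbol began with Slc, a family number, the letter a and a member number, and which had a probe set above the median signal of its own array on at least 2 of 11 arrays. They came from 320 genes with such a symbol, and 12214 genes of all kinds passed the same filter. Where a gene kept several probe sets, the one with the highest mean log2 signal stood for it. Of the 191, 187 were grouped into 13 substrate classes by family and known substrate. The other 4, Slc4a1ap, Slc7a6os, Slc9a3r1 and Slc9a3r2, match by symbol only, since they encode proteins that are not transporters. At the edge of the filter, Slc17a9, Slc5a5 and Slc5a11 exceeded the array median on just 2 arrays, with highest signals of 682, 746 and 686. A further 20 genes exceeded it on 1 array, with highest signals from 471 to 957, and stayed out. Slc25a13 exceeded the median on denervated arrays alone, and Slc16a6, Slc17a9 and Slc18a2 on innervated arrays alone, so their direction was tied to how they entered.

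Tibialis anterior, a fast muscle at the front of the mouse lower leg, gave the total RNA, which was hybridised to 11 Affymetrix arrays in 4 groups. These were denervated MCK::cre (3 arrays), innervated MCK::cre (2), denervated control (3) and innervated control (3). All mice carried runx1f/-, a floxed and a null allele of the transcription factor gene Runx1, and the mutants carried MCK::cre as well, a transgene whose muscle creatine kinase promoter restricts Cre to fibres and leaves the other cells of the muscle unrecombined. The sample titles give 3 days of denervation, while the treatment note of denervated control replicate 3 gives 5 days. Cre was present in the mutants alone, so an effect of Cre and one of the Runx1 allele cannot be told apart. Age and sex are not given in the sources used here, and the labels do not say that replicates are separate animals, so the p-values measure the spread between these arrays, which may be technical.

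Muscle fibres take up glucose through GLUT4 (Slc2a4), exchange lactate through the monocarboxylate transporters MCT1 and MCT4 (Slc16a1 and Slc16a3), concentrate creatine and taurine against steep gradients, and import amino acids for protein synthesis. In mitochondria the Slc25 carriers move ADP and ATP, phosphate, carboxylates, amino acids and acylcarnitines over the inner membrane. The nerve sets the electrical activity of the fibre, and cutting it leads to atrophy and to a changed metabolic and ion transport programme.

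Values are probe set signals on a linear scale on which every array had the same trimmed mean, and array medians lay between 442.5 and 604.6. A change is a difference of mean log2(signal + 16), given with the standard error of the limma fit and an adjusted p over all tested probe sets, and passed the test at an adjusted p below 0.05. Signals of different genes come from different probes and were not compared. Runx1 itself had signals of 20403, 20449 and 23185 on denervated MCK::cre arrays, against 23499, 25898 and 24353 on denervated control arrays. The difference was -0.21 ± 0.30 (adjusted p = 0.884), and where its probes lie relative to the floxed exon is not given, so this probe set does not check the deletion. All 10 muscle fibre markers were tested, and 9 fell in MCK::cre and 7 in control muscle. Their summed signal was 1362049 to 1700737 on denervated MCK::cre arrays, against 2219373 to 2498215 on innervated MCK::cre arrays, and 1337574 to 1922367 on denervated control arrays, against 2068693 to 2357451 on innervated control arrays. Of the 12 macrophage and leukocyte markers, 10 rose in MCK::cre and 6 in control muscle. Their summed signal was 108571 to 120382 on denervated MCK::cre arrays, against 22629 to 25222 on innervated MCK::cre arrays, and 84292 to 123976 on denervated control arrays, against 27785 to 38862 on innervated control arrays. Of 9 endothelial markers, 3 fell in MCK::cre and 6 in control muscle, and of 4 smooth muscle markers 3 fell in each. Of 4 satellite cell markers, 3 rose in MCK::cre and 2 in control muscle, of 5 Schwann cell and nerve markers 1 rose and 2 fell in each genotype, and of 6 fibroblast markers 1 fell in MCK::cre and 0 in control muscle. The granulocyte gene S100a8 rose in both genotypes and S100a9 in neither. In such bulk RNA, fewer cells of a type and less RNA per cell cannot be told apart, and the part of cell makeup in the results below was not tested.

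With denervation, 29 members rose and 44 fell in MCK::cre muscle, and 32 rose and 48 fell in control muscle. The 48 include Slc17a9, which passed the filter through innervated arrays alone. Over all 12214 genes, 30.5% passed the test in MCK::cre muscle (16.7% higher, 13.8% lower) and 34.4% in control muscle (18% higher, 16.4% lower), against 38.2% and 41.9% of the members. The members' median change was -0.17 in MCK::cre muscle and -0.09 in control muscle, and that of all genes -0.01 in both. In both genotypes 22 members rose and 37 fell, which is 22 of 29 and 37 of 44 of the MCK::cre calls and 22 of 32 and 37 of 48 of the control calls. No member was called in opposite directions, and 97 passed in neither genotype. The comparisons share no array but share the fit's estimate of the spread. The same overlap over all genes was not computed, so these counts are not read as particular to the members. The arrays of the groups did not overlap for 120 members in MCK::cre muscle (62.8%, against 60.7% of all genes) and for 99 in control muscle (51.8%, against 46.7%). Of 89 members with more than 1 kept probe set, none had another probe set called the opposite way, while 26 members called in MCK::cre and 22 called in control muscle had another that missed the threshold. Values of other probe sets are given below for some members only. Leaving out denervated control replicate 3, with its 5-day note, gave 30 rises and 42 falls in control muscle. In MCK::cre muscle there were 19 rises without innervated MCK::cre replicate 2, and 27 falls without innervated MCK::cre replicate 1 or 29 without denervated MCK::cre replicate 2.

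The balance of rises and falls depended on the scaling. The hybridisation spike-in probe sets averaged 13.39 to 13.74 on the log2 scale on denervated MCK::cre arrays, against 14.03 to 14.04 on innervated MCK::cre arrays, and 13.15 to 13.23 on denervated control arrays, against 13.83 to 14.30 on innervated control arrays. Centring the arrays on these probe sets shifted the median change of all probe sets from -0.09 to 0.37 in MCK::cre muscle and from -0.02 to 0.79 in control muscle. It gave 54 rises and 16 falls in MCK::cre muscle and 101 rises and 17 falls in control muscle. Scaling to equal array medians shifted the median of all probe sets to 0.21 in MCK::cre muscle, with 46 rises and 24 falls, and to 0.06 in control muscle, with 32 rises and 39 falls. Spike-in centring turned the sign of 43 members in MCK::cre muscle, of which 3 were called falls (Slc25a46, Slc25a51 and Slc49a4), and of 72 in control muscle, of which 17 were called falls. Median scaling turned 25 and 8, and quantile normalization 9 and 3, none of them called. Directions below are therefore relative to the trimmed mean of each array. Among MCK::cre changes printed below, spike-in centring turned Slc16a1 to 0.30, Slc6a8 to 0.33, Slc25a20 to 0.47, Slc43a1 to 0.27 and Slc25a46 to 0.03, and turned signs of control changes are given with the gene.

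**Figure D1:**
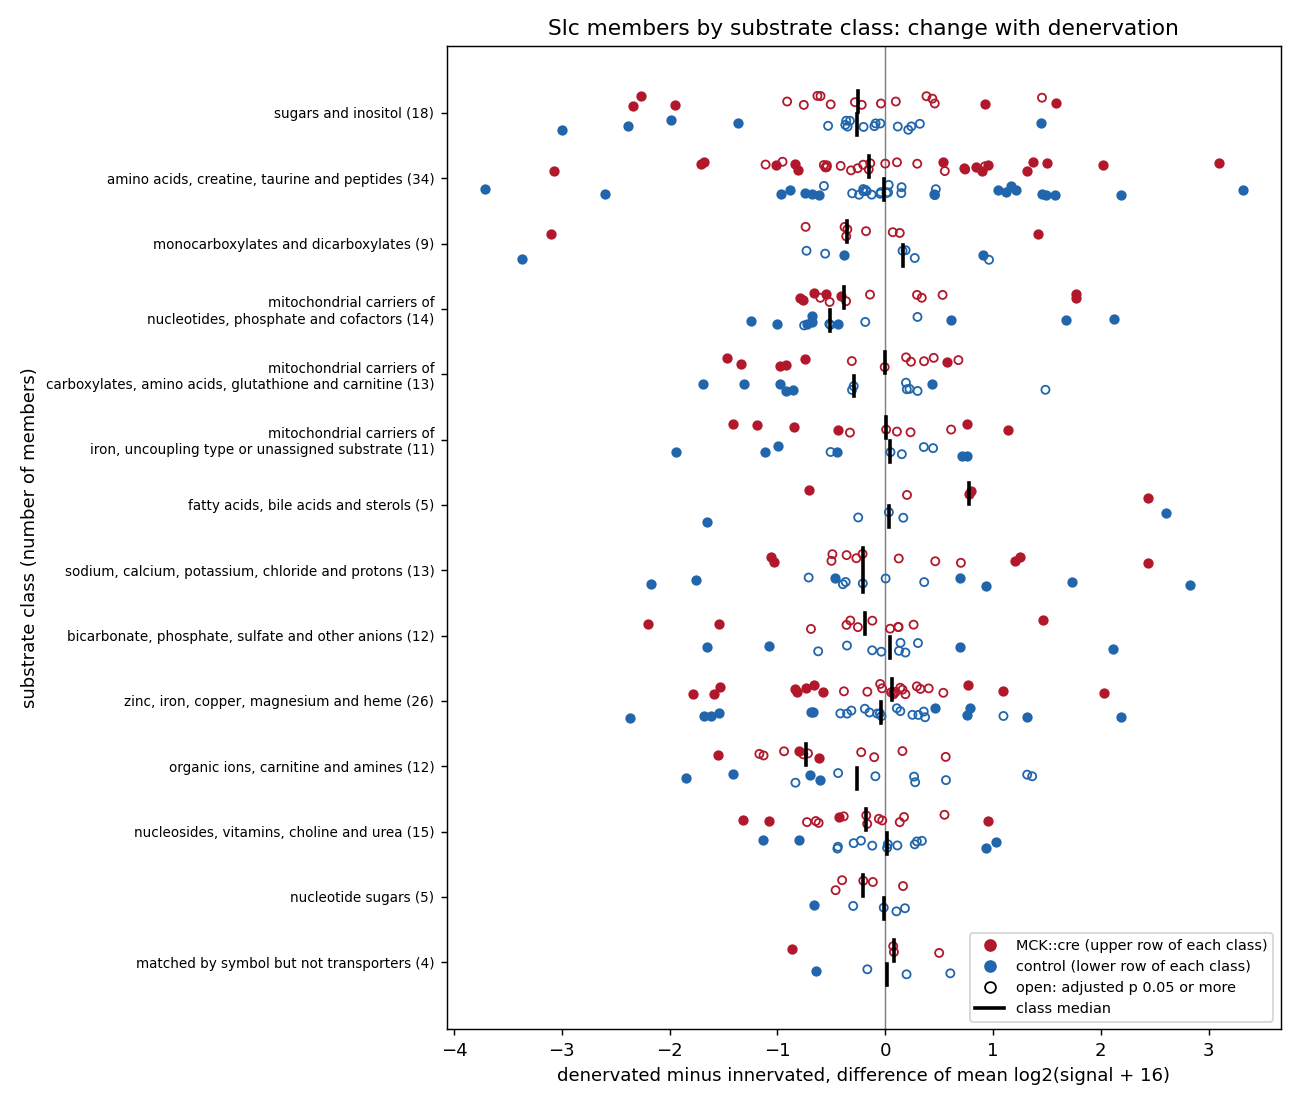
Change of each of the 191 members with denervation, by substrate class. The x axis is the denervated minus innervated difference of mean log2(signal + 16), points are genes (red and upper row MCK::cre, blue and lower row control, open where the adjusted p was 0.05 or more) and black bars are class medians. Every class median lay between -0.74 and 0.78, and single members reached -3.71 (Slc15a5) and 3.32 (Slc7a5), both with a low group mean within the signals of bacterial control probe sets.

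The sugar and inositol carriers held 18 members, of which 2 rose and 3 fell in MCK::cre muscle and 1 rose and 4 fell in control muscle, with class medians of -0.25 and -0.26. In each genotype 27.8% of the class passed, against 30.5% of all genes in MCK::cre and 34.4% in control muscle. The falls included the insulin-regulated glucose transporter and the glucose-6-phosphate transporter, and the rise in both genotypes was the basal glucose transporter GLUT1. Slc2a4 signals were 17014, 13504 and 14219 on denervated MCK::cre arrays, against 59445 and 54997 on innervated MCK::cre arrays, and 12269, 8651 and 15843 on denervated control arrays, against 55000.0, 60201 and 71990.4 on innervated control arrays. Slc2a4 was lower on every denervated array than on every innervated array of its genotype. For Slc2a4 the log2 change was -1.95 ± 0.22 (adjusted p = 3.03e-05) in MCK::cre muscle and -2.38 ± 0.19 (adjusted p = 1.52e-06) in control muscle. Slc2a4 encodes GLUT4, which moves to the fibre surface in response to insulin and contraction, and its other kept probe set changed by -2.02 and -2.18 (adjusted p = 4.48e-05 in MCK::cre and 6.77e-06 in control). Slc37a4 signals were 7065, 8132 and 7021 on denervated MCK::cre arrays, against 42124 and 33327 on innervated MCK::cre arrays, and 4445, 4704 and 4569 on denervated control arrays, against 37629, 33945 and 38134 on innervated control arrays. The denervated Slc37a4 signals were the lower in both genotypes, without overlap. For Slc37a4 the log2 change was -2.34 ± 0.14 (adjusted p = 2.18e-07) in MCK::cre muscle and -2.99 ± 0.13 (adjusted p = 8.6e-09) in control muscle. Slc37a4 encodes the carrier that brings glucose-6-phosphate into the endoplasmic reticulum, and its signal in denervated muscle was 5.06-fold lower in MCK::cre and 7.96-fold lower in control. Slc2a12 signals were 702, 783 and 409.6 on denervated MCK::cre arrays, against 3074 and 2901 on innervated MCK::cre arrays, and 636, 739.8 and 940.1 on denervated control arrays, against 2611, 3725 and 2949 on innervated control arrays. Denervated and innervated Slc2a12 signals did not overlap in either genotype, and the denervated ones were the lower. For Slc2a12 the log2 change was -2.26 ± 0.28 (adjusted p = 6.11e-05) in MCK::cre muscle and -1.98 ± 0.25 (adjusted p = 5.28e-05) in control muscle. Slc2a12 encodes GLUT12, a further facilitative glucose transporter.

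Slc2a1 signals were 9986, 7998 and 9045 on denervated MCK::cre arrays, against 2698 and 3285 on innervated MCK::cre arrays, and 9039, 12386 and 5676 on denervated control arrays, against 3064, 3382 and 2989 on innervated control arrays. Slc2a1 was higher on every denervated array than on every innervated array of its genotype. For Slc2a1 the log2 change was 1.59 ± 0.25 (adjusted p = 0.000539) in MCK::cre muscle and 1.45 ± 0.23 (adjusted p = 0.000351) in control muscle. Slc2a1 encodes GLUT1, which is found in many cell types, among them endothelium and blood cells. Slc2a3 signals were 2508, 2870.3 and 2616 on denervated MCK::cre arrays, against 1552 and 1255 on innervated MCK::cre arrays, and 1937, 1646 and 2190.4 on denervated control arrays, against 1653, 1392 and 1824 on innervated control arrays. Denervated and innervated Slc2a3 signals overlapped in control muscle, while in MCK::cre muscle the denervated arrays were all higher. For Slc2a3 the log2 change was 0.92 ± 0.19 (adjusted p = 0.0034) in MCK::cre muscle and 0.24 ± 0.17 (adjusted p = 0.327) in control muscle. Slc2a3 encodes GLUT3, a high-affinity glucose transporter of neurons and leukocytes, and only the MCK::cre change passed. The difference between the changes was 0.68 ± 0.26 (adjusted p = 0.513). Another kept Slc2a3 probe set passed in neither genotype, at 0.30 (adjusted p = 0.43) in MCK::cre and -0.02 (adjusted p = 0.957) in control muscle. The sodium-myo-inositol cotransporter gene Slc5a3 stood at -0.91 ± 0.35 (adjusted p = 0.0696) in MCK::cre muscle and was the fourth fall in control muscle, at -1.37 ± 0.31 (adjusted p = 0.00455), named after its values were seen. The other 12 members of the class, which include Slc2a8, Slc2a10 and the Slc45 family, passed in neither genotype.

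**Figure D2:**
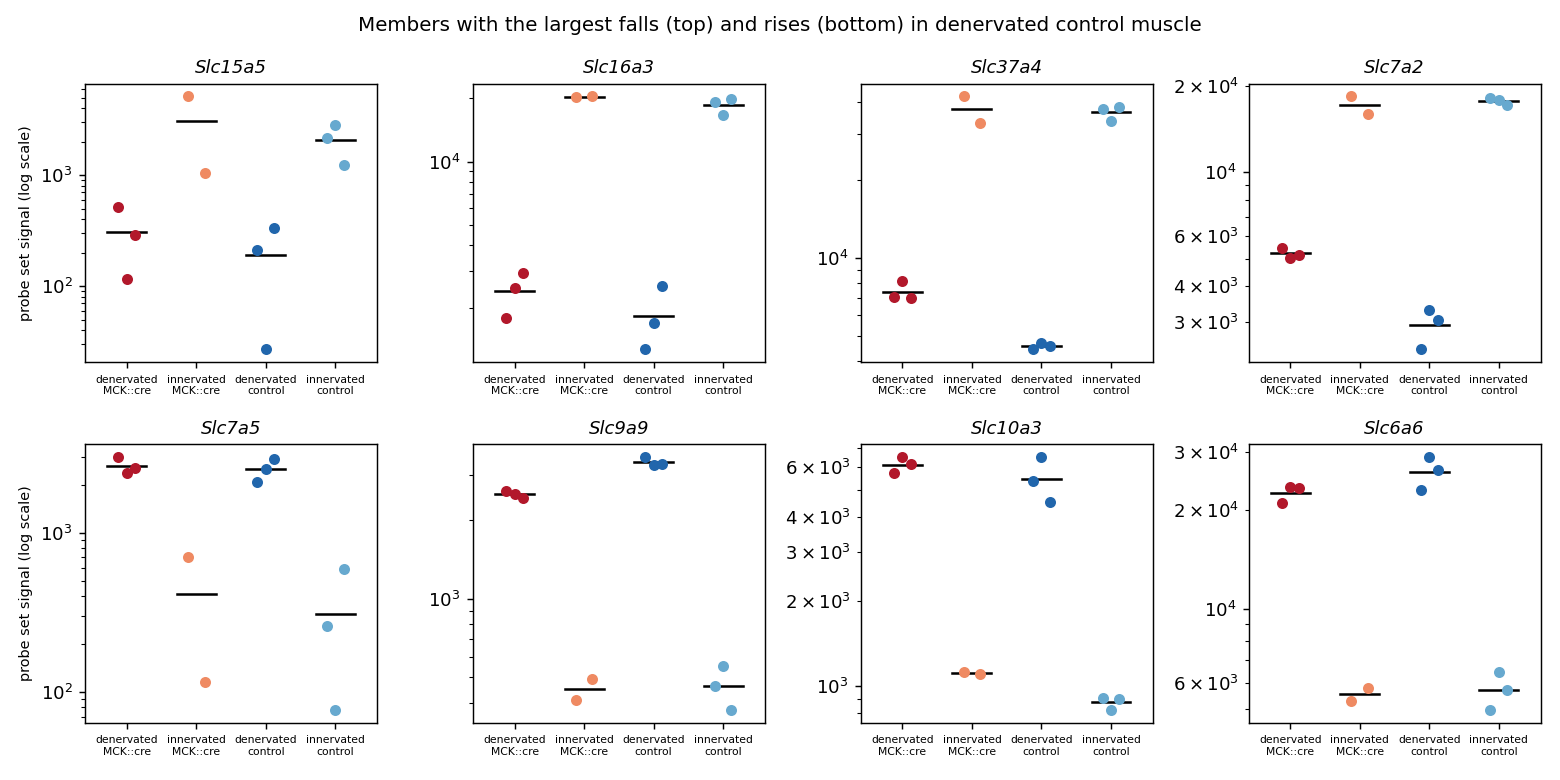
Probe set signal on every array for the 4 members with the largest falls (top) and the 4 with the largest rises (bottom) in control muscle. Points are arrays, black lines are group means and y axes are on a log scale that differs between genes. Slc15a5 and Slc7a5 spread widely within the groups in which they were low, and the other 6 genes spread less.

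Among 9 carriers of mono- and dicarboxylates, 1 rose and 1 fell in MCK::cre muscle and 1 rose and 2 fell in control muscle. This was 22.2% and 33.3% of the class, against 30.5% and 34.4% of all genes. The fall in both genotypes was Slc16a3, which encodes MCT4, the lactate exporter of fast glycolytic fibres. Slc16a3 signals were 1807, 2511 and 2935 on denervated MCK::cre arrays, against 20361 and 20485 on innervated MCK::cre arrays, and 1278, 1697 and 2567 on denervated control arrays, against 19234, 16605 and 19846 on innervated control arrays. Denervated and innervated Slc16a3 signals did not overlap in either genotype, and the denervated ones were the lower. For Slc16a3 the log2 change was -3.10 ± 0.26 (adjusted p = 2.79e-06) in MCK::cre muscle and -3.37 ± 0.23 (adjusted p = 3.48e-07) in control muscle. The signal in denervated muscle was 8.56-fold lower in MCK::cre and 10.4-fold lower in control. Slc16a1 signals were 24172, 30514 and 28810.0 on denervated MCK::cre arrays, against 30842 and 31817 on innervated MCK::cre arrays, and 26965, 29929 and 28209 on denervated control arrays, against 34265, 35891 and 40633 on innervated control arrays. Slc16a1 was lower on every denervated array than on every innervated array of its genotype. For Slc16a1 the log2 change was -0.18 ± 0.14 (adjusted p = 0.379) in MCK::cre muscle and -0.38 ± 0.13 (adjusted p = 0.0372) in control muscle. Slc16a1 encodes MCT1, which takes up lactate in oxidative fibres. Its call in control muscle was lost in 9 alternatives, among them no filter, median scaling, the replicate block fitted in control arrays alone (adjusted p = 0.0515) and the fits without any 1 of denervated control replicates 1, 2 and 3, and with spike-in centring the change was 0.45 (adjusted p = 0.0448). Slc16a9 signals were 3730.0, 4376 and 4477 on denervated MCK::cre arrays, against 2239 and 1074 on innervated MCK::cre arrays, and 4252, 2734 and 5534 on denervated control arrays, against 1770.4, 2729 and 1980.3 on innervated control arrays. The denervated Slc16a9 signals were the higher in both genotypes, without overlap. For Slc16a9 the log2 change was 1.42 ± 0.32 (adjusted p = 0.00584) in MCK::cre muscle and 0.91 ± 0.29 (adjusted p = 0.0302) in control muscle. Slc16a9 belongs to the MCT family, and its control call was lost in 4 of the fits that left out an array.

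The largest class, with 34 members, carries amino acids, creatine, taurine and peptides. It held 10 rises and 6 falls in MCK::cre muscle and 10 rises and 7 falls in control muscle, with medians of -0.15 and -0.01. These calls made up 47.1% and 50% of the class, against 30.5% and 34.4% of all genes. The rises included both subunits of the large neutral amino acid exchanger, the taurine transporter, CAT1 and SNAT2, and the falls included CAT2, SNAT3 and Slc15a5. Slc7a5 signals were 2986, 2381 and 2532 on denervated MCK::cre arrays, against 709 and 115 on innervated MCK::cre arrays, and 2078, 2506 and 2908 on denervated control arrays, against 261, 77 and 592 on innervated control arrays. Denervated and innervated Slc7a5 signals did not overlap in either genotype, and the denervated ones were the higher. For Slc7a5 the log2 change was 3.10 ± 0.69 (adjusted p = 0.00532) in MCK::cre muscle and 3.32 ± 0.62 (adjusted p = 0.00129) in control muscle. Slc7a5 encodes LAT1, which exchanges leucine and other large neutral amino acids. Its innervated signals reached into the range of 13.8 to 440 of the bacterial trp control probe sets, which match no mouse RNA, and its MCK::cre call was lost without innervated MCK::cre replicate 2 (1.86, adjusted p = 0.0936). Slc3a2 signals were 9997, 11316 and 11959 on denervated MCK::cre arrays, against 8046 and 7207 on innervated MCK::cre arrays, and 9008, 9656 and 7941 on denervated control arrays, against 7663, 6059.9 and 5775 on innervated control arrays. Slc3a2 was higher on every denervated array than on every innervated array of its genotype. For Slc3a2 the log2 change was 0.54 ± 0.16 (adjusted p = 0.0288) in MCK::cre muscle and 0.45 ± 0.15 (adjusted p = 0.0335) in control muscle. Slc3a2 encodes the CD98 heavy chain that carries LAT1 to the surface, and its smaller change in control muscle was lost without any 1 of 4 control arrays and with eBayes without trend.

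Slc6a6 signals were 20898, 23425 and 23274 on denervated MCK::cre arrays, against 5283 and 5778 on innervated MCK::cre arrays, and 22949.8, 28876 and 26312 on denervated control arrays, against 4958, 6448 and 5697 on innervated control arrays. The denervated Slc6a6 signals were the higher in both genotypes, without overlap. For Slc6a6 the log2 change was 2.02 ± 0.16 (adjusted p = 1.37e-06) in MCK::cre muscle and 2.19 ± 0.14 (adjusted p = 1.76e-07) in control muscle. Slc6a6 encodes the sodium-dependent taurine transporter. Its other kept probe sets changed by 1.87 (adjusted p = 5.61e-06), 0.33 (adjusted p = 0.623) and 0.27 (adjusted p = 0.785) in MCK::cre muscle. In control muscle these gave 1.90 (adjusted p = 1.29e-06), 1.94 (adjusted p = 0.00253) and 1.52 (adjusted p = 0.058). Slc7a1 signals were 1786, 2141 and 2537 on denervated MCK::cre arrays, against 1324 and 1059 on innervated MCK::cre arrays, and 3249.7, 3748 and 3009 on denervated control arrays, against 1232, 1085 and 998 on innervated control arrays. Denervated and innervated Slc7a1 signals did not overlap in either genotype, and the denervated ones were the higher. For Slc7a1 the log2 change was 0.84 ± 0.20 (adjusted p = 0.00797) in MCK::cre muscle and 1.58 ± 0.18 (adjusted p = 2.63e-05) in control muscle. Slc7a1 encodes CAT1, a ubiquitous importer of arginine and lysine. Slc7a2 signals were 5462, 5029 and 5152 on denervated MCK::cre arrays, against 18352 and 15886 on innervated MCK::cre arrays, and 2418, 3314 and 3056 on denervated control arrays, against 18080.4, 17747 and 17136 on innervated control arrays. Slc7a2 was lower on every denervated array than on every innervated array of its genotype. For Slc7a2 the log2 change was -1.71 ± 0.16 (adjusted p = 6.31e-06) in MCK::cre muscle and -2.60 ± 0.14 (adjusted p = 4.91e-08) in control muscle. Slc7a2 encodes CAT2, which occurs in muscle, liver and macrophages. The signal in denervated muscle was 3.27-fold lower in MCK::cre and 6.05-fold lower in control.

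Slc38a2 signals were 69306, 53542 and 66300.0 on denervated MCK::cre arrays, against 47369 and 29989.6 on innervated MCK::cre arrays, and 94016, 86974 and 65648 on denervated control arrays, against 28612, 48749 and 31114 on innervated control arrays. The denervated Slc38a2 signals were the higher in both genotypes, without overlap. For Slc38a2 the log2 change was 0.73 ± 0.25 (adjusted p = 0.0463) in MCK::cre muscle and 1.21 ± 0.22 (adjusted p = 0.00121) in control muscle. Slc38a2 encodes SNAT2, a sodium-coupled importer of small neutral amino acids that is induced by amino acid shortage. Its other kept probe sets changed by 0.75 (adjusted p = 0.0251) and 0.11 (adjusted p = 0.789) in MCK::cre muscle. In control muscle these gave 1.48 (adjusted p = 0.000108) and 0.91 (adjusted p = 0.00774). Slc38a3 signals were 3051, 2468 and 3213 on denervated MCK::cre arrays, against 9735 and 8864 on innervated MCK::cre arrays, and 4959.6, 7168 and 5622 on denervated control arrays, against 10175, 11373 and 10943 on innervated control arrays. Denervated and innervated Slc38a3 signals did not overlap in either genotype, and the denervated ones were the lower. For Slc38a3 the log2 change was -1.68 ± 0.18 (adjusted p = 2.14e-05) in MCK::cre muscle and -0.89 ± 0.16 (adjusted p = 0.00103) in control muscle. Slc38a3 encodes SNAT3, a glutamine transporter. Slc15a5 signals were 519, 115 and 287 on denervated MCK::cre arrays, against 5137 and 1041 on innervated MCK::cre arrays, and 212, 27.1 and 337 on denervated control arrays, against 2156, 2852 and 1234 on innervated control arrays. Slc15a5 was lower on every denervated array than on every innervated array of its genotype. For Slc15a5 the log2 change was -3.07 ± 0.86 (adjusted p = 0.0185) in MCK::cre muscle and -3.71 ± 0.77 (adjusted p = 0.00259) in control muscle. Slc15a5 is placed in the proton-coupled peptide transporter family by sequence. Of its 6 denervated signals 5 lay within the trp control range, so its change was measured against background signal, and its MCK::cre call was lost without innervated MCK::cre replicate 1 (-1.93, adjusted p = 0.218) and without denervated MCK::cre replicate 2 (-2.53, adjusted p = 0.0671).

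The creatine transporter gene Slc6a8, which supplies the phosphocreatine pool, passed in neither genotype. Slc6a8 signals were 16971, 14641 and 18009 on denervated MCK::cre arrays, against 18971 and 17337 on innervated MCK::cre arrays, and 15620.4, 18779 and 15073 on denervated control arrays, against 18330.4, 19211 and 20774 on innervated control arrays. These ranges overlapped, and the changes were -0.14 ± 0.15 (adjusted p = 0.526) in MCK::cre muscle and -0.24 ± 0.13 (adjusted p = 0.199) in control muscle, with the control value at 0.59 under spike-in centring and 0.05 as a mean over its probe sets. Slc43a2, which encodes the facilitative carrier LAT4, rose by 1.50 ± 0.22 in MCK::cre and 1.12 ± 0.20 in control muscle (adjusted p = 0.000284 and 0.000863). Its relative Slc43a1 (LAT3) passed in neither, at -0.20 ± 0.23 (adjusted p = 0.553) in MCK::cre and -0.57 ± 0.21 (adjusted p = 0.0569) in control muscle, with the control value at 0.25 under spike-in centring. In control muscle Slc43a1 passed with the replicate block (adjusted p = 0.0343), quantile normalization (adjusted p = 0.0459) and a mean over probe sets (adjusted p = 0.0455). Slc15a4, which exports histidine and peptides from lysosomes and is known from immune cells, had changes of 1.31 ± 0.17 (adjusted p = 9.2e-05) in MCK::cre and 1.45 ± 0.15 (adjusted p = 1.15e-05) in control muscle. Slc66a1, which exports cationic amino acids from lysosomes, had 0.74 ± 0.42 (adjusted p = 0.214) in MCK::cre and 1.49 ± 0.38 (adjusted p = 0.00899) in control muscle. Slc7a8, which encodes LAT2, stood at 0.11 ± 0.28 (adjusted p = 0.81) in MCK::cre muscle and fell in control muscle, at -0.97 ± 0.25 (adjusted p = 0.0114); the difference of 1.08 ± 0.38 (adjusted p = 0.439) did not pass.

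**Figure D3:**
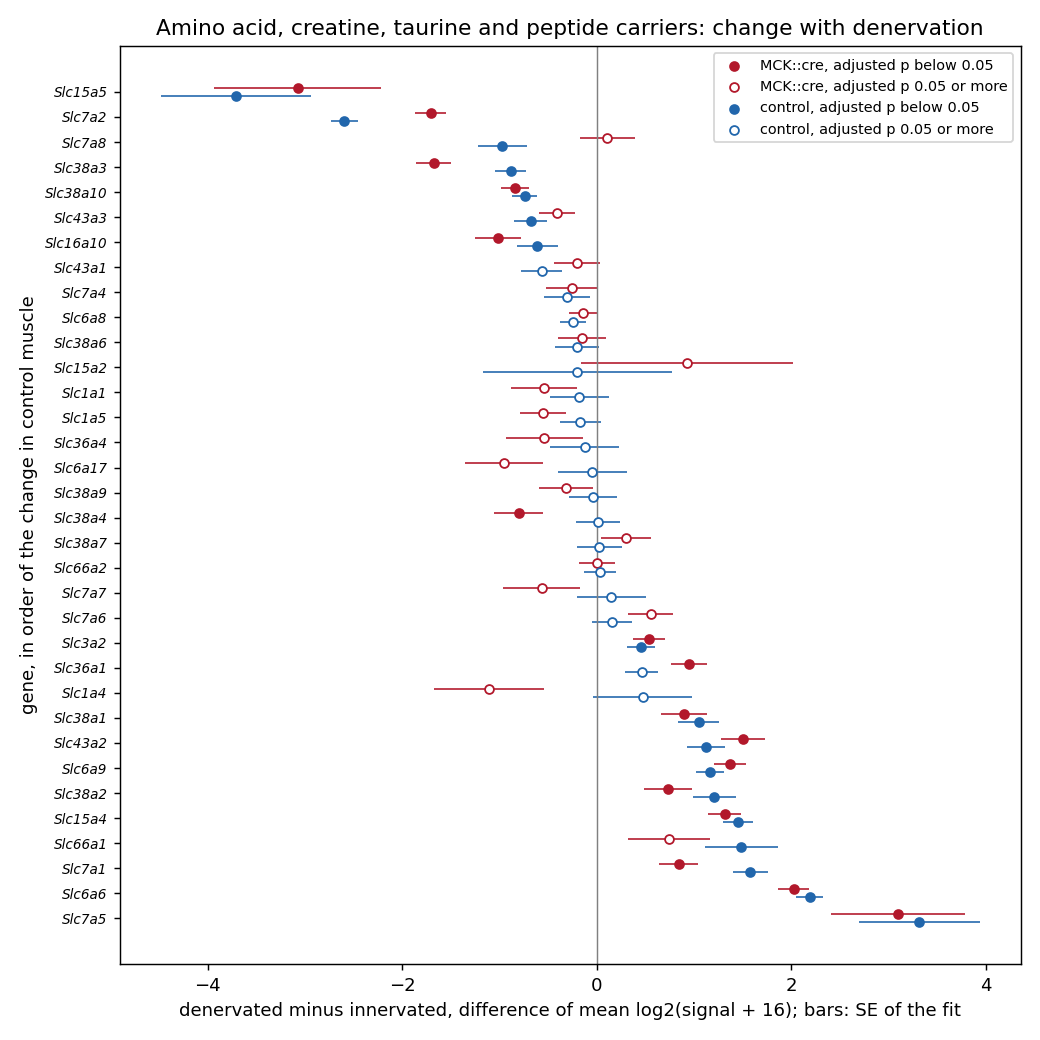
Change with denervation of the 34 carriers of amino acids, creatine, taurine and peptides, in order of the change in control muscle. The x axis is the denervated minus innervated difference of mean log2(signal + 16), with MCK::cre in red and control in blue, bars are standard errors of the fit, and open points had an adjusted p of 0.05 or more. Slc15a5 and Slc7a2 lie at one end and Slc7a5 and Slc6a6 at the other in both genotypes.

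The mitochondrial carrier family gave 38 members, of which 5 rose and 14 fell in MCK::cre muscle and 6 rose and 15 fell in control muscle. This was 50% and 55.3% of the family, against 30.5% and 34.4% of all genes. The median change of the 38 was -0.22 in MCK::cre and -0.37 in control muscle. Of the 14 carriers of nucleotides, phosphate and cofactors, 2 rose and 5 fell in MCK::cre and 3 rose and 6 fell in control muscle. With spike-in centring this class had 5 rises and no fall in either genotype, and in control muscle its median of 0.31 lay below the 0.79 of all probe sets. Slc25a4 signals were 134462, 136297 and 161863 on denervated MCK::cre arrays, against 227056 and 261672 on innervated MCK::cre arrays, and 162439, 138543 and 125226 on denervated control arrays, against 241011, 224778 and 215105 on innervated control arrays. The denervated Slc25a4 signals were the lower in both genotypes, without overlap. For Slc25a4 the log2 change was -0.76 ± 0.15 (adjusted p = 0.00184) in MCK::cre muscle and -0.68 ± 0.13 (adjusted p = 0.00145) in control muscle. Slc25a4 encodes ANT1, the ADP/ATP exchanger of heart and skeletal muscle. Its other 3 kept probe sets changed by -1.55, -1.04 and -0.74 in MCK::cre and by -2.05, -1.14 and -0.63 in control muscle, all past the threshold, while the control change of the probe set used here was 0.15 with spike-in centring and -0.25 (adjusted p = 0.0579) after quantile normalization. Slc25a3 signals were 123179.8, 110982 and 128301 on denervated MCK::cre arrays, against 178591 and 202077 on innervated MCK::cre arrays, and 131955, 94697 and 109978 on denervated control arrays, against 193344, 178232 and 178828 on innervated control arrays. Denervated and innervated Slc25a3 signals did not overlap in either genotype, and the denervated ones were the lower. For Slc25a3 the log2 change was -0.66 ± 0.15 (adjusted p = 0.00565) in MCK::cre muscle and -0.72 ± 0.13 (adjusted p = 0.00114) in control muscle. Slc25a3 encodes the phosphate carrier that feeds ATP synthase, and its control change was 0.11 with spike-in centring.

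Slc25a5 signals were 23014, 29292 and 35919 on denervated MCK::cre arrays, against 22092 and 25148 on innervated MCK::cre arrays, and 33976, 32177 and 26952 on denervated control arrays, against 23896, 15708 and 21876 on innervated control arrays. Denervated and innervated Slc25a5 signals overlapped in MCK::cre muscle, while in control muscle the denervated arrays were all higher. For Slc25a5 the log2 change was 0.30 ± 0.21 (adjusted p = 0.326) in MCK::cre muscle and 0.61 ± 0.19 (adjusted p = 0.0259) in control muscle. Slc25a5 encodes ANT2, the exchanger of proliferating cells. Of its 7 other kept probe sets 5 also rose in control muscle, and near-identical copies of this gene make its probe sets uncertain. Its control call was lost in 4 alternatives. These were eBayes without trend (adjusted p = 0.0579) and the fits without denervated control replicate 1 (0.55, adjusted p = 0.0907) or 2 (0.58, adjusted p = 0.0775) or innervated control replicate 2 (0.43, adjusted p = 0.0791). Slc25a33 signals were 36546, 22212 and 34641 on denervated MCK::cre arrays, against 7882 and 10098 on innervated MCK::cre arrays, and 37018, 36868 and 28657 on denervated control arrays, against 12297, 8738 and 11194 on innervated control arrays. The denervated Slc25a33 signals were the higher in both genotypes, without overlap. For Slc25a33 the log2 change was 1.77 ± 0.23 (adjusted p = 9.63e-05) in MCK::cre muscle and 1.67 ± 0.20 (adjusted p = 4.37e-05) in control muscle. Slc25a33 encodes a pyrimidine nucleotide carrier. Slc25a24 signals were 5100.4, 5846 and 5213 on denervated MCK::cre arrays, against 1777 and 1379.7 on innervated MCK::cre arrays, and 7595, 7053 and 9928 on denervated control arrays, against 1705, 1939.8 and 1903 on innervated control arrays. Denervated and innervated Slc25a24 signals did not overlap in either genotype, and the denervated ones were the higher. For Slc25a24 the log2 change was 1.77 ± 0.18 (adjusted p = 1.74e-05) in MCK::cre muscle and 2.12 ± 0.16 (adjusted p = 9.68e-07) in control muscle. Slc25a24 encodes a calcium-regulated exchanger of ATP-magnesium for phosphate. Its other kept probe set changed by 0.94 (adjusted p = 0.103) in MCK::cre and 1.63 (adjusted p = 0.00388) in control muscle.

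Of the 13 carriers of carboxylates, amino acids, glutathione and carnitine, 1 rose and 5 fell in each genotype. The falls included both carriers of the malate-aspartate shuttle, which brings reducing equivalents from glycolysis into mitochondria. Slc25a12 signals were 27938, 39011 and 34408 on denervated MCK::cre arrays, against 82155 and 87619 on innervated MCK::cre arrays, and 26662, 25055 and 27126 on denervated control arrays, against 84605, 95246 and 75237 on innervated control arrays. Slc25a12 was lower on every denervated array than on every innervated array of its genotype. For Slc25a12 the log2 change was -1.34 ± 0.16 (adjusted p = 4.27e-05) in MCK::cre muscle and -1.69 ± 0.14 (adjusted p = 1.75e-06) in control muscle. Slc25a12 encodes aralar, the calcium-regulated aspartate-glutamate carrier of muscle and brain, and its relative Slc25a13, known from liver, passed in neither genotype (0.68 ± 1.04 in MCK::cre, adjusted p = 0.666, and 1.49 ± 0.93 in control muscle, adjusted p = 0.261). Slc25a11 signals were 16458, 19960.2 and 20801 on denervated MCK::cre arrays, against 46776 and 59174 on innervated MCK::cre arrays, and 18945, 18483 and 19849 on denervated control arrays, against 51528, 44999 and 46005 on innervated control arrays. The denervated Slc25a11 signals were the lower in both genotypes, without overlap. For Slc25a11 the log2 change was -1.47 ± 0.15 (adjusted p = 1.5e-05) in MCK::cre muscle and -1.31 ± 0.13 (adjusted p = 1.04e-05) in control muscle. Slc25a11 encodes the oxoglutarate-malate carrier. The ornithine carrier gene Slc25a15 and the basic amino acid carrier gene Slc25a29 fell as well, Slc25a15 (-0.92 in MCK::cre and -0.86 in control) and Slc25a29 (-0.98 in MCK::cre and -0.92 in control), and both control calls were lost with spike-in centring.

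Slc25a20 signals were 15422, 16461 and 18044 on denervated MCK::cre arrays, against 15867 and 17485 on innervated MCK::cre arrays, and 16668, 12819 and 17643 on denervated control arrays, against 19066, 16242 and 22341 on innervated control arrays. These Slc25a20 values overlapped in both genotypes. Slc25a20 encodes the carnitine-acylcarnitine carrier that admits fatty acids to oxidation, and its changes were 0.00 ± 0.17 (adjusted p = 0.989) in MCK::cre and -0.29 ± 0.16 (adjusted p = 0.188) in control muscle, with the control value at 0.54 under spike-in centring. Among the 11 carriers of iron, of the uncoupling type or without an assigned substrate, 2 rose and 4 fell in each genotype. Slc25a35, Slc25a47 and Slc25a46 fell in both. The values were Slc25a35 (-1.19 in MCK::cre and -1.11 in control), Slc25a47 (-1.41 in MCK::cre and -0.99 in control) and Slc25a46 (-0.44 in MCK::cre and -0.44 in control). In control muscle spike-in centring ended the calls of Slc25a35 and Slc25a47 and turned Slc25a46, which encodes an outer membrane protein of mitochondrial dynamics, to 0.38. Median scaling also ended the control call of Slc25a46 (-0.37, adjusted p = 0.121). Its other kept probe set passed in neither genotype, at -0.42 (adjusted p = 0.0505) in MCK::cre and -0.27 (adjusted p = 0.145) in control muscle. Slc25a34 fell in control muscle and not in MCK::cre muscle and is described with the genotype comparison.

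**Figure D4:**
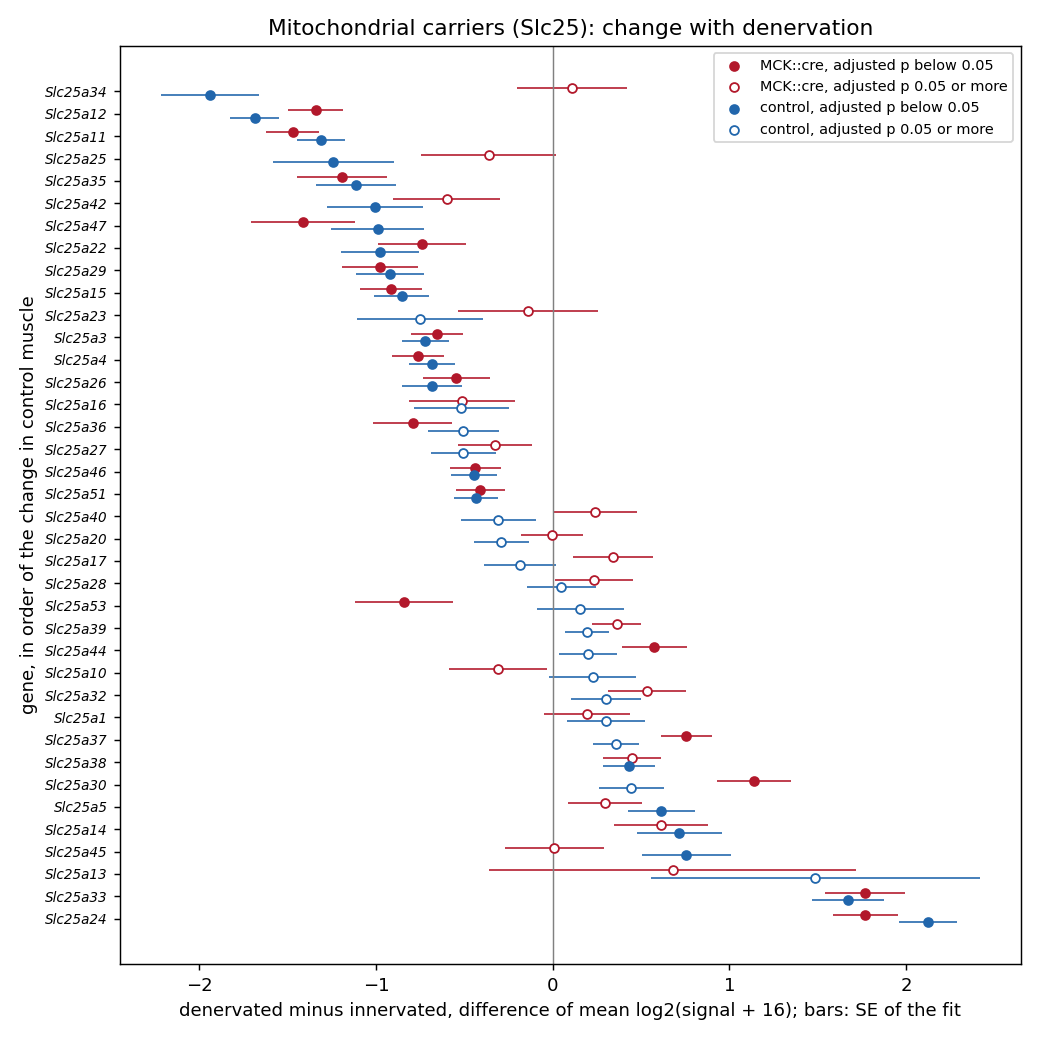
Change with denervation of the 38 Slc25 mitochondrial carriers, in order of the change in control muscle. The x axis is the denervated minus innervated difference of mean log2(signal + 16), with MCK::cre in red and control in blue, bars are standard errors of the fit, and open points had an adjusted p of 0.05 or more. Slc25a34 shows 0.11 in MCK::cre and -1.94 in control muscle, while Slc25a12 and Slc25a11 are low and Slc25a24 and Slc25a33 high in both.

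Of 5 carriers of fatty acids, bile acids and sterols, 3 rose and 1 fell in MCK::cre muscle and 1 rose and 1 fell in control muscle. Slc27a1 signals were 1933, 1669.5 and 2284 on denervated MCK::cre arrays, against 3269 and 3119 on innervated MCK::cre arrays, and 1182, 911 and 1507 on denervated control arrays, against 3475, 3568 and 4208 on innervated control arrays. Denervated and innervated Slc27a1 signals did not overlap in either genotype, and the denervated ones were the lower. For Slc27a1 the log2 change was -0.71 ± 0.22 (adjusted p = 0.0286) in MCK::cre muscle and -1.66 ± 0.19 (adjusted p = 3.29e-05) in control muscle. Slc27a1 encodes FATP1, a long-chain fatty acid transporter with acyl-CoA synthetase activity. Another kept Slc27a1 probe set changed by -0.44 (adjusted p = 0.299) in MCK::cre and -1.24 (adjusted p = 0.00321) in control muscle. Slc10a3 signals were 5707, 6517 and 6153 on denervated MCK::cre arrays, against 1123 and 1105 on innervated MCK::cre arrays, and 5354, 6526 and 4521 on denervated control arrays, against 907, 820.1 and 900.3 on innervated control arrays. Slc10a3 was higher on every denervated array than on every innervated array of its genotype. For Slc10a3 the log2 change was 2.44 ± 0.18 (adjusted p = 8.28e-07) in MCK::cre muscle and 2.61 ± 0.16 (adjusted p = 1.13e-07) in control muscle. Slc10a3 belongs to the bile acid transporter family and has no known substrate. Slc10a6 and Slc10a7 of the same family rose in MCK::cre muscle, at 0.78 ± 0.26 (adjusted p = 0.0438) and 0.80 ± 0.22 (adjusted p = 0.0159). In control muscle they stood at -0.25 ± 0.23 (adjusted p = 0.471) and 0.17 ± 0.19 (adjusted p = 0.564), and Slc10a6 turned to 0.58 with spike-in centring. Neither interaction passed, at adjusted p = 0.413 and 0.645. Another kept Slc10a7 probe set did not pass, at -0.43 (adjusted p = 0.534) in MCK::cre and 0.04 (adjusted p = 0.959) in control muscle.

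Of 12 carriers of organic ions, carnitine and amines, none rose, 3 fell in MCK::cre muscle and 4 fell in control muscle. An unadjusted limma p below 0.05 held for 5 in MCK::cre and 6 in control muscle, against 5195 and 5479 of all 12214 genes. Medians were -0.74 in MCK::cre and -0.26 in control muscle. Slc47a1 signals were 6408, 6569 and 7034 on denervated MCK::cre arrays, against 18984 and 20108 on innervated MCK::cre arrays, and 5518, 5819 and 5668 on denervated control arrays, against 16717, 23916 and 21308 on innervated control arrays. The denervated Slc47a1 signals were the lower in both genotypes, without overlap. For Slc47a1 the log2 change was -1.55 ± 0.16 (adjusted p = 1.43e-05) in MCK::cre muscle and -1.85 ± 0.14 (adjusted p = 8.32e-07) in control muscle. Slc47a1 encodes MATE1, a proton-coupled exporter of organic cations. Slc22a5 signals were 3400.0, 3502 and 3301 on denervated MCK::cre arrays, against 4678 and 5767 on innervated MCK::cre arrays, and 3361, 2793 and 3405 on denervated control arrays, against 5023, 5496 and 4940.2 on innervated control arrays. Denervated and innervated Slc22a5 signals did not overlap in either genotype, and the denervated ones were the lower. For Slc22a5 the log2 change was -0.61 ± 0.16 (adjusted p = 0.0127) in MCK::cre muscle and -0.69 ± 0.14 (adjusted p = 0.00233) in control muscle. Slc22a5 encodes OCTN2, the carnitine importer, and its control change was 0.13 with spike-in centring. Slc22a17 also fell in both genotypes, -0.80 in MCK::cre and -0.60 in control, with its control call lost in 9 alternatives, among them the replicate block (adjusted p = 0.0516), and its sign turned to 0.21 with spike-in centring. Slc17a9, the vesicular nucleotide transporter gene, stood at -0.72 ± 0.54 (adjusted p = 0.357) in MCK::cre muscle and fell in control muscle, at -1.41 ± 0.48 (adjusted p = 0.0437), with denervated signals inside the trp control range and the call lost in 14 alternatives, among them the replicate block (adjusted p = 0.06). Slc17a9 exceeded the array median on innervated arrays alone. The direction of its change, counted among the 4 falls, was thus tied to how it entered.

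Carriers of sodium, calcium, potassium, chloride and protons numbered 13, of which 3 rose and 2 fell in MCK::cre muscle and 4 rose and 3 fell in control muscle. The sodium-calcium exchanger NCX3 and the surface sodium-proton exchanger NHE2 were lower, while the endosomal exchanger NHE9 and the potassium-chloride cotransporters KCC1 and KCC4 were higher. Slc8a3 signals were 3488, 3981 and 3251 on denervated MCK::cre arrays, against 7103 and 7776 on innervated MCK::cre arrays, and 2005, 1331 and 1796 on denervated control arrays, against 8027, 7453 and 7441 on innervated control arrays. Slc8a3 was lower on every denervated array than on every innervated array of its genotype. For Slc8a3 the log2 change was -1.06 ± 0.18 (adjusted p = 0.000939) in MCK::cre muscle and -2.17 ± 0.16 (adjusted p = 7.71e-07) in control muscle. Slc8a3 encodes NCX3, the exchanger of skeletal muscle and brain. Its relative Slc8a1, the cardiac NCX1, passed in neither genotype (-0.49 ± 0.35 in MCK::cre, adjusted p = 0.324, and 0.00 ± 0.31 in control muscle, adjusted p = 0.994). Slc9a9 signals were 2584, 2536 and 2434 on denervated MCK::cre arrays, against 411 and 494 on innervated MCK::cre arrays, and 3501, 3271 and 3287 on denervated control arrays, against 463, 552 and 375 on innervated control arrays. The denervated Slc9a9 signals were the higher in both genotypes, without overlap. For Slc9a9 the log2 change was 2.44 ± 0.20 (adjusted p = 2.35e-06) in MCK::cre muscle and 2.83 ± 0.18 (adjusted p = 1.74e-07) in control muscle. Slc9a9 encodes NHE9, and 2 of its 5 innervated signals lay within the trp control range, with the others just above it. Its other kept probe set did not pass in MCK::cre muscle, at 0.78 (adjusted p = 0.423). In control muscle that probe set rose by 2.99 (adjusted p = 0.00212), and its interaction was -2.21 (adjusted p = 0.568). Slc9a2 signals were 2638, 2179 and 2546 on denervated MCK::cre arrays, against 5770.5 and 4385 on innervated MCK::cre arrays, and 1549, 1743 and 1647 on denervated control arrays, against 4324, 6272 and 6448 on innervated control arrays. Denervated and innervated Slc9a2 signals did not overlap in either genotype, and the denervated ones were the lower. For Slc9a2 the log2 change was -1.04 ± 0.20 (adjusted p = 0.00218) in MCK::cre muscle and -1.76 ± 0.18 (adjusted p = 1.1e-05) in control muscle.

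Slc9a7 signals were 1060.3, 1012 and 1311 on denervated MCK::cre arrays, against 817 and 569.7 on innervated MCK::cre arrays, and 1511, 1208 and 1388 on denervated control arrays, against 171, 995 and 363 on innervated control arrays. Slc9a7 was higher on every denervated array than on every innervated array of its genotype. For Slc9a7 the log2 change was 0.70 ± 0.50 (adjusted p = 0.324) in MCK::cre muscle and 1.73 ± 0.45 (adjusted p = 0.0103) in control muscle. Slc9a7 encodes NHE7 of the trans-Golgi network, and 2 of its 3 innervated control signals lay within the trp control range. Slc12a7 and Slc12a4, the genes of KCC4 and KCC1, which let potassium and chloride out of the cell, rose in both genotypes. Slc12a7 gave 3423, 4101 and 3967 on denervated MCK::cre arrays, against 1613 and 1586 on innervated MCK::cre arrays. On the other arrays it had 2478, 2485 and 2353 on denervated control arrays, against 1456, 1234 and 1123 on innervated control arrays. The denervated arrays were the higher in both, and the changes were 1.25 ± 0.17 (adjusted p = 0.000149) in MCK::cre and 0.94 ± 0.15 (adjusted p = 0.000433) in control muscle. Another kept Slc12a7 probe set changed by 1.07 (adjusted p = 0.0184) in MCK::cre and 0.29 (adjusted p = 0.466) in control muscle. Slc12a4 was at 1.20 ± 0.20 (adjusted p = 0.000617) in MCK::cre and 0.70 ± 0.17 (adjusted p = 0.00886) in control muscle. Slc12a2 encodes NKCC1, which works in the opposite direction. It was at 0.13 ± 0.18 (adjusted p = 0.634) in MCK::cre and -0.47 ± 0.16 (adjusted p = 0.0403) in control muscle, a call lost in 13 alternatives, among them quantile normalization (adjusted p = 0.0525), the replicate block (adjusted p = 0.0544) and the fit without denervated control replicate 1 (adjusted p = 0.167), and turned to 0.36 by spike-in centring. Its other kept probe sets changed by -0.21 (adjusted p = 0.491) and -0.78 (adjusted p = 0.0857) in MCK::cre muscle, and by -0.91 (adjusted p = 0.00269) and -0.76 (adjusted p = 0.0611) in control muscle.

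Among 12 carriers of bicarbonate, phosphate, sulfate and other anions, 1 rose and 2 fell in MCK::cre muscle and 2 rose and 2 fell in control muscle. Slc20a1 signals were 6524, 8701 and 7611 on denervated MCK::cre arrays, against 2842 and 2620.2 on innervated MCK::cre arrays, and 11263, 13259.6 and 8146 on denervated control arrays, against 2306, 2657 and 2396 on innervated control arrays. The denervated Slc20a1 signals were the higher in both genotypes, without overlap. For Slc20a1 the log2 change was 1.46 ± 0.20 (adjusted p = 0.000166) in MCK::cre muscle and 2.12 ± 0.18 (adjusted p = 2.21e-06) in control muscle. Slc20a1 encodes PiT-1, one of a pair of sodium-phosphate cotransporters. The other, Slc20a2 (PiT-2), passed in neither genotype, at 0.26 ± 0.21 (adjusted p = 0.381) in MCK::cre and -0.04 ± 0.19 (adjusted p = 0.913) in control muscle, and its control value was 0.04 with median scaling and 0.79 with spike-in centring. Slc4a4 signals were 887, 839 and 730.3 on denervated MCK::cre arrays, against 3807 and 3795 on innervated MCK::cre arrays, and 1174, 1197 and 969 on denervated control arrays, against 3608, 3860.1 and 3101 on innervated control arrays. Denervated and innervated Slc4a4 signals did not overlap in either genotype, and the denervated ones were the lower. For Slc4a4 the log2 change was -2.20 ± 0.18 (adjusted p = 2.39e-06) in MCK::cre muscle and -1.65 ± 0.16 (adjusted p = 7.26e-06) in control muscle. Slc4a4 encodes the sodium-bicarbonate cotransporter NBCe1, which takes part in pH regulation. Slc26a6, an anion exchanger gene, fell in both genotypes, at -1.54 ± 0.20 (adjusted p = 0.000104) in MCK::cre and -1.07 ± 0.18 (adjusted p = 0.000553) in control muscle. Slc4a3, the gene of the chloride-bicarbonate exchanger AE3, stood at 0.12 ± 0.21 (adjusted p = 0.708) in MCK::cre muscle and rose in control muscle (0.70 ± 0.19, adjusted p = 0.0131). Its call was lost without denervated control replicate 1 or 3 (adjusted p = 0.0535 and 0.0562), and that of Slc26a6 in control muscle with spike-in centring (-0.25, adjusted p = 0.31).

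The 26 carriers of zinc, iron, copper, magnesium and heme split, with 3 rises and 8 falls in MCK::cre muscle and 5 rises and 6 falls in control muscle. The zinc importer ZIP14 was higher, and the iron exporter ferroportin and a pair of magnesium transporters were lower. Slc39a14 signals were 9933, 6367 and 9957 on denervated MCK::cre arrays, against 2415 and 1811 on innervated MCK::cre arrays, and 13969.8, 10889 and 9206 on denervated control arrays, against 2626, 2803 and 1986 on innervated control arrays. Slc39a14 was higher on every denervated array than on every innervated array of its genotype. For Slc39a14 the log2 change was 2.03 ± 0.25 (adjusted p = 6.02e-05) in MCK::cre muscle and 2.19 ± 0.22 (adjusted p = 9.04e-06) in control muscle. Slc39a14 encodes ZIP14, which also admits manganese and iron. Its other kept probe sets changed by 2.32 (adjusted p = 0.016) and 0.99 (adjusted p = 0.118) in MCK::cre muscle. In control muscle these gave 2.64 (adjusted p = 0.00314) and 1.68 (adjusted p = 0.00601). Slc40a1 signals were 5772, 4715 and 5104 on denervated MCK::cre arrays, against 17192 and 14152 on innervated MCK::cre arrays, and 3989, 6765 and 4838 on denervated control arrays, against 13207, 21879.9 and 14915 on innervated control arrays. The denervated Slc40a1 signals were the lower in both genotypes, without overlap. For Slc40a1 the log2 change was -1.59 ± 0.24 (adjusted p = 0.000358) in MCK::cre muscle and -1.68 ± 0.22 (adjusted p = 6.89e-05) in control muscle. Slc40a1 encodes ferroportin, the only known cellular iron exporter. Slc41a3 signals were 3968, 3437 and 4269.6 on denervated MCK::cre arrays, against 14179 and 12565 on innervated MCK::cre arrays, and 1998, 2679.7 and 3091 on denervated control arrays, against 12207, 13529 and 13868 on innervated control arrays. Denervated and innervated Slc41a3 signals did not overlap in either genotype, and the denervated ones were the lower. For Slc41a3 the log2 change was -1.78 ± 0.19 (adjusted p = 1.85e-05) in MCK::cre muscle and -2.36 ± 0.17 (adjusted p = 4.23e-07) in control muscle. Slc41a3 belongs to the Slc41 family of magnesium transporters. Slc41a1 signals were 7427, 8684 and 9319.8 on denervated MCK::cre arrays, against 14169 and 15998 on innervated MCK::cre arrays, and 6060.0, 5027 and 6343 on denervated control arrays, against 15884, 16168 and 18671 on innervated control arrays. Slc41a1 was lower on every denervated array than on every innervated array of its genotype. For Slc41a1 the log2 change was -0.83 ± 0.16 (adjusted p = 0.00192) in MCK::cre muscle and -1.54 ± 0.14 (adjusted p = 4.52e-06) in control muscle.

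The zinc exporter gene Slc30a1 passed in neither genotype (0.05 ± 0.18 in MCK::cre, adjusted p = 0.855, and -0.31 ± 0.16 in control muscle, adjusted p = 0.179), and its control value was 0.51 with spike-in centring and 0.17 as a mean over its probe sets. Slc11a2 encodes DMT1, which moves ferrous iron out of endosomes. It fell in MCK::cre muscle (-0.58 ± 0.18, adjusted p = 0.0331) and stood at 0.25 ± 0.16 (adjusted p = 0.279) in control muscle. None of its other kept probe sets passed in MCK::cre muscle, at -0.20, -0.80 and 0.05 (adjusted p = 0.544, 0.46 and 0.864). Slc11a1, which encodes NRAMP1 of the phagosome, a protein of macrophages, gave 2076, 1826 and 1876 on denervated MCK::cre arrays, against 867 and 915 on innervated MCK::cre arrays. In control muscle it had 2127, 1945 and 1672 on denervated control arrays, against 901, 578 and 826 on innervated control arrays. The denervated arrays were the higher in both genotypes, at 1.10 ± 0.22 (adjusted p = 0.00236) in MCK::cre and 1.32 ± 0.19 (adjusted p = 0.00021) in control muscle. It was named after its values were seen, because some macrophage and leukocyte markers rose too, and their part in its change was not tested. Of those 12 markers 10 rose in MCK::cre and 6 in control muscle. The markers that missed the threshold in control muscle ran from -0.04 (Ptprc, adjusted p = 0.898) to 0.77 (Fcer1g, adjusted p = 0.067).

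Carriers of nucleosides, vitamins, choline and urea gave 1 rise and 3 falls in MCK::cre muscle and 2 rises and 2 falls in control muscle among 15 members. In each genotype 26.7% of the class passed, against 30.5% of all genes in MCK::cre and 34.4% in control muscle. Slc29a2 signals were 386, 494 and 649 on denervated MCK::cre arrays, against 1266 and 1273 on innervated MCK::cre arrays, and 559, 632 and 445 on denervated control arrays, against 1069.9, 1189 and 1375 on innervated control arrays. The denervated Slc29a2 signals were the lower in both genotypes, without overlap. For Slc29a2 the log2 change was -1.32 ± 0.27 (adjusted p = 0.00288) in MCK::cre muscle and -1.14 ± 0.24 (adjusted p = 0.00298) in control muscle. Slc29a2 encodes the equilibrative nucleoside transporter ENT2, and its control call was lost with spike-in centring (-0.32, adjusted p = 0.292), while its relative Slc29a1 (ENT1) passed in neither genotype (0.17 ± 0.16 in MCK::cre, adjusted p = 0.435, and 0.11 ± 0.14 in control muscle, adjusted p = 0.588). Slc44a1 signals were 8262, 9095 and 9266 on denervated MCK::cre arrays, against 5421 and 3864 on innervated MCK::cre arrays, and 10246, 9613 and 10305 on denervated control arrays, against 4963, 5016 and 4822 on innervated control arrays. Denervated and innervated Slc44a1 signals did not overlap in either genotype, and the denervated ones were the higher. For Slc44a1 the log2 change was 0.95 ± 0.16 (adjusted p = 0.000716) in MCK::cre muscle and 1.02 ± 0.14 (adjusted p = 0.000127) in control muscle. Slc44a1 encodes the choline transporter CTL1. Its other kept probe set did not pass, at 0.07 (adjusted p = 0.778) in MCK::cre and 0.05 (adjusted p = 0.844) in control muscle. The acetyl-CoA transporter gene Slc33a1 stood at 0.14 ± 0.24 (adjusted p = 0.707) in MCK::cre muscle and rose in control muscle (0.94 ± 0.21, adjusted p = 0.00439). The thiamine transporter gene Slc19a2 stood at -0.62 ± 0.22 (adjusted p = 0.055) in MCK::cre muscle and fell in control muscle (-0.80 ± 0.20, adjusted p = 0.00778, but 0.02 with spike-in centring, and with the call lost as a mean over probe sets). Of 5 nucleotide sugar carriers, 0 passed in MCK::cre muscle, where 0 had an unadjusted limma p below 0.05, against 5195 of all 12214 genes. Slc35a1, the CMP-sialic acid carrier gene, fell in control muscle (-0.66 ± 0.14, adjusted p = 0.00319, but 0.17 with spike-in centring). Of the 4 genes that are not transporters, Slc9a3r2, a scaffold protein gene, fell in both, at -0.87 ± 0.23 (adjusted p = 0.0136) in MCK::cre and -0.65 ± 0.20 (adjusted p = 0.0298) in control muscle, and its control call was lost in 7 alternatives, with a value of 0.18 under spike-in centring. Another kept Slc9a3r2 probe set fell in both (adjusted p = 0.00583 in MCK::cre and 0.0202 in control). The rest passed in neither (adjusted p = 0.0807 to 0.182 in MCK::cre and 0.108 to 0.222 in control).

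A list of 22 partner genes outside the symbol rule, such as accessory subunits and regulators of these carriers, had 17 tested. Of these 3 rose and 7 fell in MCK::cre muscle and 3 rose and 10 fell in control muscle, beside the 30.5% and 34.4% of all genes that passed. The list's median was -0.32 in MCK::cre and -0.52 in control muscle, against -0.01 for all genes in both. The list was chosen by hand with earlier results of these data known, so no enrichment is read from these values. Bsg encodes basigin, the chaperone that MCT1 and MCT4 need to reach the surface, and changed by -0.82 ± 0.15 (adjusted p = 0.00138) in MCK::cre and -0.71 ± 0.13 (adjusted p = 0.00138) in control muscle. Emb encodes embigin, a related chaperone, and changed by 1.27 ± 0.22 (adjusted p = 0.000985) in MCK::cre and 1.17 ± 0.20 (adjusted p = 0.000621) in control muscle. Tbc1d4 encodes AS160, which holds GLUT4 inside the cell until insulin acts. Tbc1d4 signals were 612, 1051 and 1074 on denervated MCK::cre arrays, against 1762 and 2434 on innervated MCK::cre arrays, and 787, 402 and 839 on denervated control arrays, against 2193, 3415 and 3046 on innervated control arrays. The denervated arrays were the lower in both genotypes, at -1.21 ± 0.34 (adjusted p = 0.019) in MCK::cre and -2.11 ± 0.31 (adjusted p = 0.000181) in control muscle. Tfrc, which encodes the transferrin receptor of iron uptake, gave 6213, 5664 and 6025 on denervated MCK::cre arrays, against 74772 and 104219 on innervated MCK::cre arrays. In control muscle it had 9990.1, 9865 and 6624 on denervated control arrays, against 89641, 98102 and 76541 on innervated control arrays. Its signal in denervated muscle was 14.8-fold lower in MCK::cre and 10.1-fold lower in control (adjusted p = 5.45e-08 and 4.59e-08).

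Whether the MCK::cre genotype altered the denervated state was asked by setting the denervated MCK::cre arrays against the denervated control arrays. Here 4 members were higher and 2 lower in MCK::cre muscle. An unadjusted limma p below 0.05 held for 36 members, against 1527 of all 12214 genes. With spike-in centring 1 member was higher and 15 lower, while the median of all probe sets shifted from -0.01 to -0.38. Over all genes 2.19% passed, 1.05% higher and 1.14% lower, and among the members 3.14%. The arrays did not overlap between genotypes for 48 members (25.1%, against 23.1% of all genes). The 4 that were higher, Slc25a34, Slc8a3, Slc7a2 and Slc37a4, are genes that fell with denervation in control muscle. That comparison uses the same denervated control arrays, so each is given with its own values and no overlap is read from them.

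Slc25a34 gave 2925, 2104 and 2387 on denervated MCK::cre arrays, against 553, 497 and 882 on denervated control arrays. The MCK::cre signals were all higher, by 1.95 ± 0.28 (adjusted p = 0.00271). On innervated arrays it had 1937 and 2659 in MCK::cre and 2413, 1704 and 3525 in control muscle. The denervated control arrays thus stood below the other 3 groups, which overlapped. With denervation Slc25a34 stood at 0.11 ± 0.31 (adjusted p = 0.827) in MCK::cre muscle and fell in control muscle, at -1.94 ± 0.28 (adjusted p = 0.000167). The difference of these changes was 2.05 ± 0.42 (adjusted p = 0.0795), which passed with median scaling (2.28, adjusted p = 0.0435), without denervated control replicate 3 (2.29, adjusted p = 0.0377) and without innervated control replicate 2 (2.30, adjusted p = 0.0233). Slc25a34 is a mitochondrial carrier with no established substrate, and it has a single kept probe set.

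Slc8a3 gave 3488, 3981 and 3251 on denervated MCK::cre arrays, against 2005, 1331 and 1796 on denervated control arrays. Without overlap the MCK::cre arrays were the higher, by 1.07 ± 0.16 (adjusted p = 0.00442), and both lay below the innervated signals given above. Another Slc8a3 probe set had a difference of 0.82 (adjusted p = 0.273). Slc7a2 gave 5462, 5029 and 5152 on denervated MCK::cre arrays, against 2418, 3314 and 3056 on denervated control arrays. The MCK::cre arrays were again all higher, by 0.84 ± 0.14 (adjusted p = 0.00752). Its other 3 kept probe sets gave 1.48 (adjusted p = 0.0454), 0.80 (adjusted p = 0.345) and -0.03 (adjusted p = 0.989), and the mean over its probe sets ended the call (0.77, adjusted p = 0.234). Slc37a4 gave 7065, 8132 and 7021 on denervated MCK::cre arrays, against 4445, 4704 and 4569 on denervated control arrays. These did not overlap, and the difference was 0.69 ± 0.13 (adjusted p = 0.0147), which missed the threshold with eBayes without trend (adjusted p = 0.0541) and without denervated control replicate 1, denervated MCK::cre replicate 2 or denervated MCK::cre replicate 3 (adjusted p = 0.0715, 0.0977 and 0.0504). Spike-in centring ended the calls of Slc8a3 (0.69, adjusted p = 0.0736), Slc7a2 (0.46, adjusted p = 0.149) and Slc37a4 (0.31, adjusted p = 0.3), and kept that of Slc25a34.

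Slc38a3 gave 3051, 2468 and 3213 on denervated MCK::cre arrays, against 4959.6, 7168 and 5622 on denervated control arrays. For this glutamine carrier the MCK::cre arrays were all lower, with a difference of -1.01 ± 0.16 (adjusted p = 0.00549). Its other kept probe set gave 0.24 (adjusted p = 0.946), and the mean over both ended the call (-0.39, adjusted p = 0.755). Slc11a2 gave 2062, 1432 and 1734 on denervated MCK::cre arrays, against 2546, 3041 and 3084 on denervated control arrays. The DMT1 signals did not overlap either, and the difference was -0.73 ± 0.16 (adjusted p = 0.0386). This call was lost in 13 of the alternatives, among them the replicate block (adjusted p = 0.0659) each fit without a denervated control array, and the mean over probe sets (-0.31, adjusted p = 0.651). The other 3 kept Slc11a2 probe sets gave -0.19, -0.26 and -0.06 (adjusted p = 0.826, 0.938 and 0.945). Macrophage, fibre and the other marker lists had no gene past the threshold in this comparison. S100a8 (1.07 ± 0.30, adjusted p = 0.11) and Cd68 (0.57 ± 0.19, adjusted p = 0.214) were nevertheless higher on every denervated MCK::cre array. Adgre1 (-0.10, adjusted p = 0.906) and Cd14 (-0.03, adjusted p = 0.982) were slightly lower, with overlap. With 3 arrays per group this does not show equal cell makeup, and the part of makeup was not tested.

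**Figure D5:**
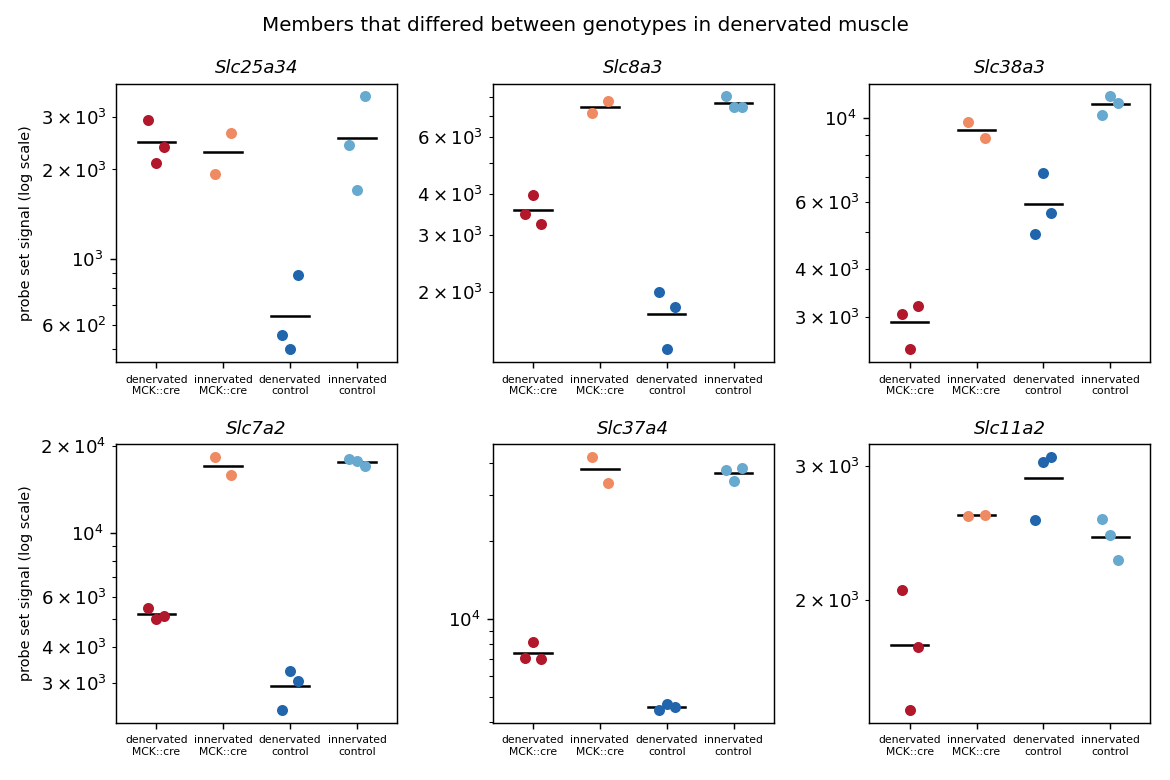
Probe set signal on every array for the 6 members that differed between genotypes in denervated muscle. Points are arrays, black lines are group means and y axes are on a log scale that differs between genes. For Slc25a34 the denervated control arrays are the lowest, while for Slc8a3, Slc7a2 and Slc37a4 the denervated MCK::cre arrays lie between denervated control and innervated arrays.

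Promoter windows are shown for some of the genes that differed by genotype, Slc25a34, Slc8a3 and Slc37a4. Windows of Slc7a2, Slc38a3 and Slc11a2, which differed too, are not shown. Also shown are a gene that fell and a gene that rose in both genotypes, Slc16a3 and Slc9a9. The genes were picked by hand, so no contrast between their windows is read. Each window runs from 250 bases before to 50 bases after the annotated start in RefSeq, build GRCm38.p6, and is written 5′ to 3′ on the gene's strand. Capitals mark the RUNX core motif TGTGGT (or ACCACA, its reverse complement) and the E-box CAGCTG, a palindrome bound by myogenic factors, searched on both strands; the motifs share no position here. For Slc37a4 the first of 3 listed starts is shown.
Slc25a34 (chr4:141623785-141624084, minus strand): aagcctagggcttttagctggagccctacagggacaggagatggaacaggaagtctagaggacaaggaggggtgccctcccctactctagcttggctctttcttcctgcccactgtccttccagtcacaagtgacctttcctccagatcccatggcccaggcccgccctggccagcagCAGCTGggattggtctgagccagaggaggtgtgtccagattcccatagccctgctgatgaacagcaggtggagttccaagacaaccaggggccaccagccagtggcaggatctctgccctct
Slc8a3 (chr12:81333131-81333430, minus strand): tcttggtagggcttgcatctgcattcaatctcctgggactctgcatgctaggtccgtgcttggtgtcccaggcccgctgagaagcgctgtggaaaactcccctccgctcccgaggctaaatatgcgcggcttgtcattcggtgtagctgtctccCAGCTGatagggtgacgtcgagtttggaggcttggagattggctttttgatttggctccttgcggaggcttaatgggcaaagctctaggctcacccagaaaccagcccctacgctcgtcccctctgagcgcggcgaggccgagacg
Slc37a4 (chr9:44396696-44396995, plus strand): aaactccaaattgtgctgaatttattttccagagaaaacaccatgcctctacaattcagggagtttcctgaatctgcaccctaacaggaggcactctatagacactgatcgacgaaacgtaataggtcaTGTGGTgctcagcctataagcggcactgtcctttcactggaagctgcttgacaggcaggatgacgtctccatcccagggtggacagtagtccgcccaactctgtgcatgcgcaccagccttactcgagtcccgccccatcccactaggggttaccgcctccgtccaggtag
Slc16a3 (chr11:120948817-120949116, plus strand): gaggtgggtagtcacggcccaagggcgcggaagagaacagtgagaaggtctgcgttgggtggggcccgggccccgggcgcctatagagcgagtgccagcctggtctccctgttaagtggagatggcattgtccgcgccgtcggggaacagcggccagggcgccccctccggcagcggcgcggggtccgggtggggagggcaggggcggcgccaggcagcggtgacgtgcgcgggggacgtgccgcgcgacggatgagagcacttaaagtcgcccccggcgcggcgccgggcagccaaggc
Slc9a9 (chr9:94669642-94669941, plus strand): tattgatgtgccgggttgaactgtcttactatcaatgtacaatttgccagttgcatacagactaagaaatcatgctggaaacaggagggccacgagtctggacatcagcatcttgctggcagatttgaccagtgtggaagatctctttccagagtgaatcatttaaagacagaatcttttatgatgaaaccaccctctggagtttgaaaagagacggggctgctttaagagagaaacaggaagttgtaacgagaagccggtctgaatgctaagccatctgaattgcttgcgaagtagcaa
The Slc25a34 and Slc8a3 windows hold 1 E-box each, the Slc37a4 window holds 1 RUNX core, and these letters are not in the Slc16a3 and Slc9a9 windows. The RUNX core occurs in 16.8% of all 32851 windows and in 22 of 197 windows (11.2%) of the 147 members matched by symbol, and the E-box in 16.3% of all and 37 of 197 (18.8%). A match describes the letters alone.

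Between innervated MCK::cre and innervated control muscle 0 members and 0% of all genes passed in limma. An unadjusted p below 0.05 held for 7 members, against 461 of all 12214 genes. The smallest p-values belonged to Slc5a11, Slc25a53, Slc7a8, Slc66a1 and Slc26a11, with differences of -1.78, 0.75, -0.77, 1.01 and 0.65 and an adjusted p of 0.998 each. Slc5a11, a sodium-inositol cotransporter gene, gave 111 and 117 on innervated MCK::cre arrays, against 507, 541 and 289 on innervated control arrays, near or inside the trp control range. The comparison rests on 2 innervated MCK::cre arrays. The denervation change itself was compared between genotypes as the interaction. There 0 members passed in limma, against 0.262% of all genes, and 25 members had an unadjusted p below 0.05, against 997 of all 12214 genes. The 5 smallest p-values were those of Slc25a34, given above, of Slc8a3 (1.11 ± 0.25, adjusted p = 0.111), Slc7a2 (0.89 ± 0.21, adjusted p = 0.145), Slc11a2 (-0.83 ± 0.25, adjusted p = 0.299) and Slc37a4 (0.65 ± 0.19, adjusted p = 0.305). The 7 rises and 7 falls called in MCK::cre muscle alone, and the 10 rises and 11 falls called in control muscle alone, were not shown to differ between genotypes.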

How the data were processed

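The deposited table gave, per the file headers, a linear intensity for each of 45101 probe sets on 11 arrays. The 2% trimmed mean of the deposited intensities was 2500 on each array, a scaling read from the values; the software and its version are not given in the sources used here. Intensities were used as log2(value + 16). The 64 control probe sets were left out, a probe set was kept if its signal exceeded the array median on 2 or more of the 11 arrays, and 26170 probe sets and 12214 genes remained. Signals carry no counts, so precision is limited by how many arrays there are.

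Symbols came from the supplied probe annotation, in which 34958 probe sets had 1 symbol, 932 several and 9211 were not listed; all 191 members' gene IDs were in the reference gene table. The 4 group means were estimated together from the 11 arrays with limma 3.58.1 in R 4.3.3 (eBayes with trend, Benjamini-Hochberg adjustment over all kept probe sets, threshold 0.05). It was tested on simulated data. Comparisons were denervated minus innervated muscle in each genotype, MCK::cre minus control in each state of innervation, and the interaction. Named were the 10 largest rises and falls per denervation comparison without overlap between groups, up to 4 members per class with the smallest p, all members past the threshold between genotypes (or the 5 with the smallest p), and 30 members chosen for their known roles; the few others were named after their values were seen. Members, classes and lists were chosen with earlier results of these data known. Alternatives were other pseudocounts, filters, scalings, probe set rules and variance settings, a replicate block, and each array left out.

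No label ties equal replicate numbers to 1 animal. Across probe sets, array deviations from their group mean had correlations of 0.114, 0.217 and 0.303 between equal-numbered denervated and innervated control arrays, of 0.03 and 0.05 in MCK::cre muscle, and of -0.18 to 0.02 between genotypes. By the rule that every pair exceed 0.1, the numbers count as pairs within the control genotype.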

Additional observations from a re-analysis of the deposited data

How the results depend on the processing

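With spike-in centring, rises and falls numbered 54 and 16 with denervation in MCK::cre muscle and 101 and 17 in control muscle, and 1 member was higher and 15 lower in denervated MCK::cre than in denervated control muscle. Median scaling gave 46 rises and 24 falls in MCK::cre muscle. With no filter, median scaling or eBayes without trend, 1 member was lower in denervated MCK::cre than denervated control muscle, and with median scaling 1 had an interaction. Leaving out arrays in turn gave 19 to 34 rises and 27 to 47 falls in MCK::cre muscle; the ends were set by innervated MCK::cre replicate 2 (19 rises) and replicate 1 (27 falls), and without denervated MCK::cre replicate 2 there were 29 falls. In control muscle it gave 24 to 33 rises and 40 to 46 falls, between denervated genotypes 3 to 5 higher and 1 to 3 lower, and for the interaction 0 to 1. The replicate block gave 28 rises and 36 falls in MCK::cre muscle, 30 and 46 in control muscle, 6 higher and 2 lower between denervated genotypes, and 0 for the other comparisons. Fitted in the control arrays alone, an alternative chosen after seeing the data, it gave 30 and 48. Among single genes the block ended the calls of Slc11a2 between genotypes and of Slc22a17, Slc17a9 and Slc12a2 in control muscle, and Slc43a1 passed there; fitted in the control arrays alone it ended those of Slc22a17 and Slc16a1, and Slc43a1 passed.

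With spike-in centring the control changes of 19 named members turned from negative to positive: Slc10a6 (0.58), Slc9a3r2 (0.18), Slc9a3r1 (0.65), Slc25a46 (0.38), Slc25a3 (0.11), Slc25a4 (0.15), Slc16a1 (0.45), Slc16a12 (0.079), Slc19a2 (0.024), Slc35a1 (0.17), Slc35a4 (0.53), Slc22a5 (0.13), Slc22a17 (0.21), Slc6a8 (0.59), Slc25a20 (0.54), Slc12a2 (0.36), Slc20a2 (0.79), Slc30a1 (0.51) and Slc43a1 (0.25). As a mean over probe sets Slc9a3r1 (0.054), Slc6a8 (0.049), Slc30a1 (0.17) and Slc11a2 (-0.15) turned, and with median scaling Slc20a2 (0.044). Leaving out 1 array in turn gave control changes on both sides of 0 for Slc9a3r1 (-0.40 to 0.0025), Slc8a1 (-0.15 to 0.10) and Slc20a2 (-0.16 to 0.12). The cause was not tested. Of 108 single-gene results, 65 kept direction and side of the threshold in every setting other than leaving out an array. Groups of 2 or 3 arrays limit what small changes could be called.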
